A study of Mus musculus with 15 samples.

Results

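Of the 66381 autosomal peaks in the merged ATAC-seq peak table of implanted mouse pancreatic tumours, 3401 were open in every clone measured. These peaks were chosen by their counts: each held 30 CPM or more in each of 13 libraries, CPM being the usual depth-scaled count, taken here over the TMM-scaled library total. The whole table held 67945 peaks. ATAC-seq uses a transposase that cuts accessible DNA, so that the count in a peak follows how open the region is. Each library came from 50000 tumour cells sorted from a subcutaneous tumour 3 weeks after a tumour cell clone was implanted into C57BL/6 mice, with no treatment. The 6 clones labelled T cell high were 7160c2, 6620c1, 6555c3, 6499c4, 6421c2 and 2838c3. The 7 clones labelled T cell low were 6694c2, 6556c3, 6499c3, 6422c1, 6419c5, 6419c1 and 2699c4. Each clone gave 1 library, so the spread between libraries is the spread between clones, tumours and library preparations together. The 2 clones of intermediate T cell content were not analysed here. The rule used the counts of all 13 libraries, so the levels of these peaks and their lower bound are a description. Beyond the limit to autosomes, it used neither position, nor gene, nor T cell group. The name holds for these 13 tumour samples and says nothing about other tissues.

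Promoters of widely used genes are commonly kept free of nucleosomes, often over a CpG island, a GC-rich stretch whose CpG pairs are mostly unmethylated. Factors such as SP and KLF proteins, NFY, NRF1 and ETS proteins bind short motifs there. Enhancers, which lie away from gene starts, tend to be open in fewer cell types. In tumour cells, a gained or lost chromosome segment also changes the count of every peak on it.

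The stretches below are the 200 bases before the RefSeq start of 9 genes whose peak was open in every clone (build GRCm38.p6, mm10), printed 5′ to 3′ along the gene. They are examples of promoters from the steadiest peaks (Them4, Cacul1, Mki67 and Zkscan17), the most variable (Ttc7, Zfp653 and Pkdcc) and the most open (Hjurp and Sp4). Capitals mark matches on either strand to 1 of 10 motifs, whose letters and shares are given with the promoter composition further on.
Them4, chr3:94309932-94310131, plus strand: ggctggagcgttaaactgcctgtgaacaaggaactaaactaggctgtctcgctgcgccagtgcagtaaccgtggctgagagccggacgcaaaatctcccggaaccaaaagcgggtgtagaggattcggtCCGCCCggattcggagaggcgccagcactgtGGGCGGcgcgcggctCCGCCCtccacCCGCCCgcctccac
Cacul1, chr19:60581024-60581223, minus strand: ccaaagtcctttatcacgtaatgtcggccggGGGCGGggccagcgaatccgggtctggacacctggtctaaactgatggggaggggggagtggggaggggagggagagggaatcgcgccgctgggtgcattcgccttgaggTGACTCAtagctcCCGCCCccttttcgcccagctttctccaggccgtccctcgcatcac
Mki67, chr7:135716380-135716579, minus strand: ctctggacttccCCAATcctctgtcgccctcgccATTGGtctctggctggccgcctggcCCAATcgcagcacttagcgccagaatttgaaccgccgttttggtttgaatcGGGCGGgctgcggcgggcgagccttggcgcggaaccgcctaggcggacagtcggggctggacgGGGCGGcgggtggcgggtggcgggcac
Zkscan17, chr11:59506641-59506840, minus strand: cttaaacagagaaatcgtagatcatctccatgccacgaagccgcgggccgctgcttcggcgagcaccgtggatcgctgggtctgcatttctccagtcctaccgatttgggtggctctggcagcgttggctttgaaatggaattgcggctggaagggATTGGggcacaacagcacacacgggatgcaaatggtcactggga
Ttc7, chr17:87282686-87282885, plus strand: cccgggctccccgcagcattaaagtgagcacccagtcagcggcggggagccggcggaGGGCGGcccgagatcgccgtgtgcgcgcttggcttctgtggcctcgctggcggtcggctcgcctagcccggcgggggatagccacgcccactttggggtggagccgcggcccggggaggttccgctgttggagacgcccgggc
Zfp653, chr9:22071377-22071576, minus strand: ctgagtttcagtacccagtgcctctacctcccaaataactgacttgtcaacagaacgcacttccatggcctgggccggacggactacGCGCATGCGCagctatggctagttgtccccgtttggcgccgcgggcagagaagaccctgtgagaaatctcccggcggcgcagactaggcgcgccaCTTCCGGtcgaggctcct
Pkdcc, chr17:83215083-83215282, plus strand: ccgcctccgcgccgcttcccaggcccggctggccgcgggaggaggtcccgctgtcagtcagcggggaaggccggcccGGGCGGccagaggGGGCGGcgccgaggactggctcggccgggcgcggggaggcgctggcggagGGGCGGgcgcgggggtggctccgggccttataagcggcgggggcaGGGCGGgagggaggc
Hjurp, chr1:88277580-88277779, minus strand: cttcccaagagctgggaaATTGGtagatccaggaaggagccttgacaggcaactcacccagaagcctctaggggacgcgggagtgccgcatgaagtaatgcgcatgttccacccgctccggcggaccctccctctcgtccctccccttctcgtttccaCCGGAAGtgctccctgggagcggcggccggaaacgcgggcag
Sp4, chr12:118301441-118301640, minus strand: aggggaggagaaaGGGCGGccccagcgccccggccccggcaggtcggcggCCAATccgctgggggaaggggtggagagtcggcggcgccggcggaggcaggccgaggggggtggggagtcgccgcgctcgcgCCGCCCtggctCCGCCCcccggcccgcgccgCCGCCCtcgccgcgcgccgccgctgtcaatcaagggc
In these examples the letters did not divide the steady from the variable promoters: GGGCGG or its complement stood in Them4, Cacul1 and Mki67, and also in Ttc7 and Pkdcc. Zfp653 held matches to NRF1 and ETS letters, Cacul1 one to AP-1 letters, and Zkscan17 one to NFY letters. At the steadiest peak, whose starts are not printed, the 200 bases before D11Wsu47e held 0 matches, and of 2 starts of its partner Fam104a 1 held an ETS match and the other 0.

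Total counts in peaks ran from 968296 in 7160c2 to 7369228 in 6419c1, with a median of 3008183 over the 13 libraries. The always-open peaks took 24.7% ± 1.8 (SD, n = 13) of all counts in peaks. This share was 24.3% ± 0.89 (n = 6) in T cell high and 25% ± 2.4 (n = 7) in T cell low libraries, and it was highest in 6499c3 at 28.9%. Depth set part of the rule's precision, since 30 CPM stood for 32.1 counts in 7160c2 and 33.9 in 6556c3 but for 214 in 6419c1. As a check of the sorted cells, 29 of 32 epithelial identity genes had a peak at a gene end, and their summed level was 450 to 877 CPM in T cell high and 547 to 900 CPM in T cell low libraries. Of 16 leukocyte markers 6 had such a peak, with sums of 30.7 to 72.7 CPM and 52.3 to 99.3 CPM, and Cd3e, Cd3d, Cd8a, Itgam and Csf1r had none. Of 9 fibroblast markers 3 had such a peak, with sums of 31.8 to 52.7 CPM and 33.2 to 53.1 CPM. The sums are over unequal numbers of genes, so their sizes cannot be compared directly between lists. No leukocyte, fibroblast, endothelial or acinar and islet marker had an always-open peak. The part of other cells in the results was not tested.

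The number of peaks by the number of libraries at 30 CPM had 2 ends. In 48620 autosomal peaks no library reached 30 CPM, 3984 reached it in 1 library, and between 637 and 1192 peaks did so for each number of libraries from 4 to 12. The 3401 peaks at 13 made 5.12% of the autosomal peaks. Of the 1192 peaks that missed the mark in 1 library, 420 missed it in 7160c2 and 263 in 6556c3, the shallowest libraries, and 13 in the deepest, 6419c1. Without those 2 libraries, an alternative chosen after seeing the data, 4045 peaks met the rule.

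Always-open peaks lay mostly at genes. A peak counted as at a gene end when it came within 1 kb of either end of a protein-coding gene record. This held for 2708 of the 3401 (79.6%), against 15.6% of the other 62980 autosomal peaks. A further 426 (12.5%) lay inside gene records, 197 (5.79%) outside genes within 50 kb of a gene end, and 70 (2.06%) farther out. Among the other autosomal peaks these shares were 42.3%, 25.9% and 16.3%. The share at a gene end was 9.53% for peaks that reached 30 CPM in no library, 42.7% for those at 7 libraries and 63.0% for those at 12.

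**Figure D1:**
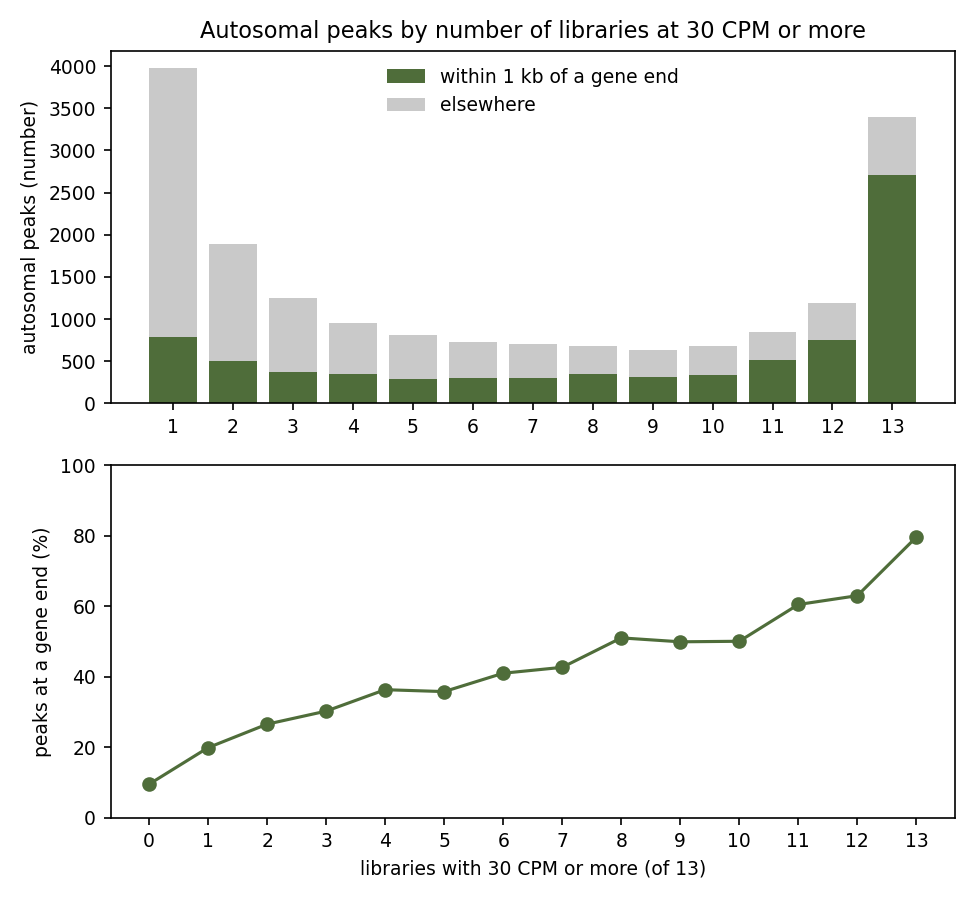
Upper panel, number of autosomal peaks (y axis) by the number of the 13 libraries in which they reached 30 CPM (x axis; the 48620 peaks at 0 are left out), split into peaks within 1 kb of a gene end and peaks elsewhere. Lower panel, percent of those peaks at a gene end, which runs from 9.53% at 0 libraries to 79.6% at 13.

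The end in question was the start. Where RefSeq gave the strand of a gene at the peak, 2218 of 2238 always-open peaks (99.1%) were at a gene start, against 84.6% of the other autosomal gene-end peaks. Starts of 2 genes on opposite strands shared the peak in 362 of the 2238 (16.2%), against 7.05% of 7918 others. Read the other way, 24.9% of the peaks at gene starts were open in every clone. The share was 39.4% at paired opposite starts and 1.61% where the far end of a gene alone lay near. Paired starts of this kind included Fam104a with D11Wsu47e, and Atp5j with Gabpa, which encodes an ETS family factor.

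Of the 693 always-open peaks away from gene ends, 223 (32.2%) still lay within 1 kb of a RefSeq start of a coding gene inside its record, and 53 (7.65%) within 1 kb of a start of a noncoding gene. The shares were 2.19% and 2.87% in the other peaks away from gene ends. The peak at chr11:109650052-109651878 was of the first kind: it lay 1029 bp from the end of the Prkar1a record and spanned further starts of Prkar1a, the regulatory subunit of protein kinase A. The remaining 417 had no start within 1 kb in the tables used.

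Peak length went with being open in every clone. Counts were summed over the peak, and the median level per kb was also higher, at 50.6 against 11.3 CPM. The rule chose these peaks by their level, so a higher level per kb is partly fixed by the choice. The part of summation was not tested. The median length was 1330 bp, against 685 bp for the other autosomal peaks. Among peaks of 500 to 1000 bp 1.02% were always open, among those of 1000 to 1500 bp 15.5%, and among those of 2000 to 5000 bp 51.6%. At equal length the gene ends still stood out: for 1000 to 1500 bp the share was 28.9% at gene ends and 5.0% elsewhere, and for 1500 to 2000 bp it was 41.7% and 14.6%. With 30 CPM per kb of length in place of 30 CPM per peak, 2282 peaks met the rule, 1995 of them among the 3401, and 75.1% were at a gene end.

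The genes behind these peaks were read against lists of pathways and markers. Of 20661 autosomal protein-coding genes, 3255 (15.8%) had an always-open peak within 1 kb of an end, and so did 26.9% of the 12095 with any peak there. The counts below describe the lists and are no enrichment test. Some of the peaks named below also lay within 1 kb of an end of a gene outside the list.

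**Figure D2:**
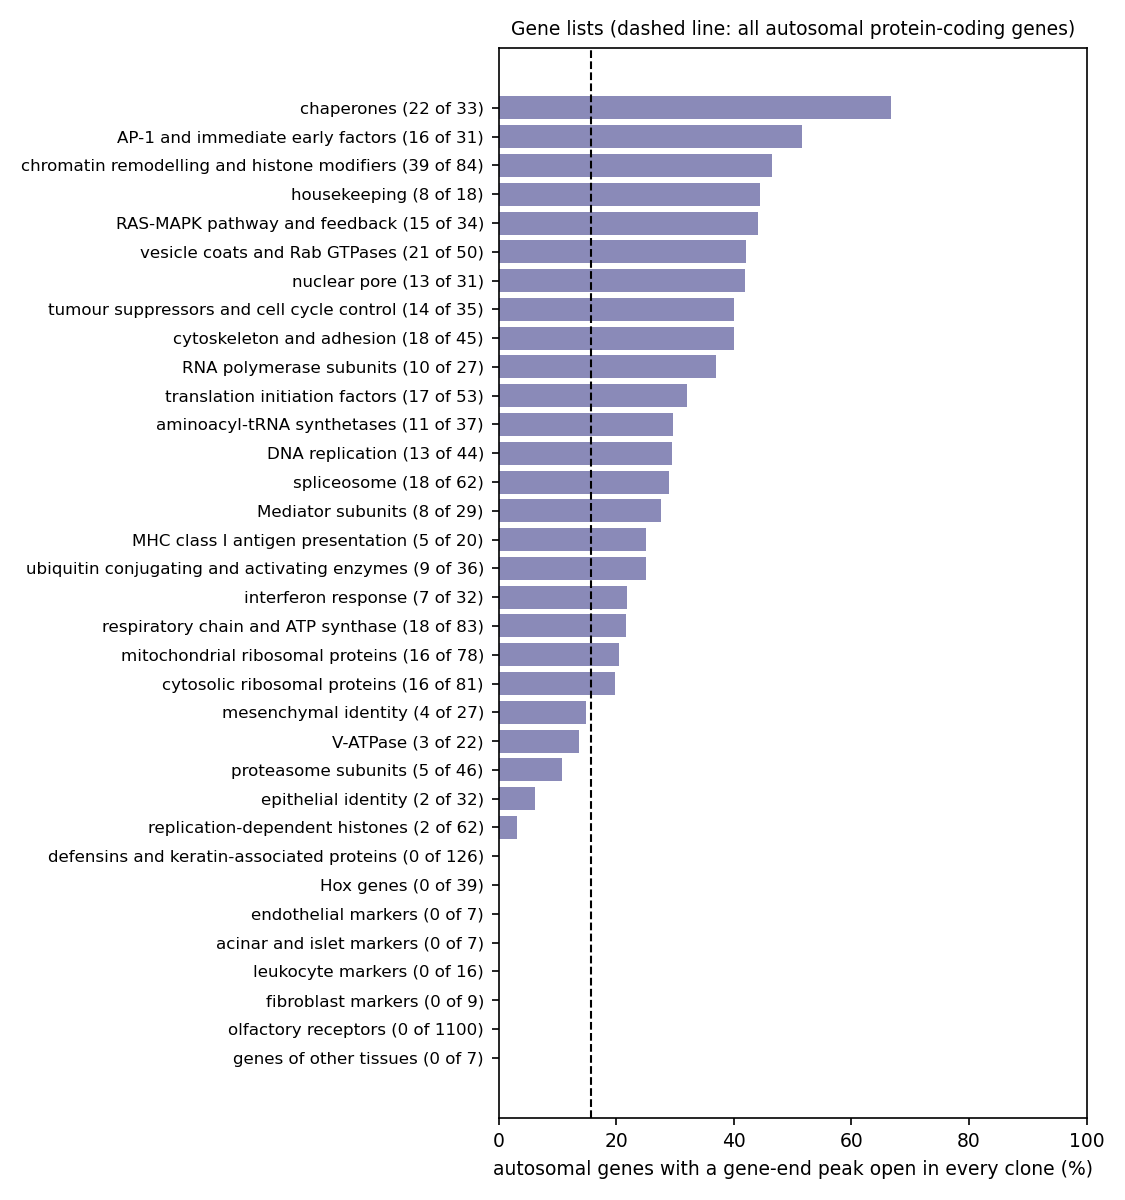
Percent of the autosomal genes of each list (x axis) that had an always-open peak within 1 kb of a gene end, with the counts beside each name; the dashed line marks the 15.8% of all autosomal protein-coding genes. Chaperones stood highest at 22 of 33, and 8 lists had none.

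Among stress and signalling genes, the chaperones had the highest share of any list. Chaperones, which fold proteins and are induced by heat, had 22 of 33 genes with an always-open peak (66.7%). Among them, Dnajb1, a co-chaperone of HSP70, had 154 ± 41 CPM (SD, n = 13), lowest in 6556c3 at 102 and highest in 6421c2 at 255. Hspa8, the constitutive HSP70, had 117 ± 22 CPM. AP-1 and immediate early factors, which answer growth signals within minutes, had 16 of 31 (51.6%). Jun, a subunit of AP-1, had 136 ± 28 CPM, from 100.5 in 6422c1 to 182 in 6499c3. The RAS-MAPK list had 15 of 34 (44.1%). Its most open peak was at Rasa1, a GTPase activator that turns RAS off, with 116 ± 17 CPM.

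Chromatin and nuclear genes package, copy and read the genome. Chromatin remodellers and histone modifiers had 39 of 84 (46.4%), with Kmt2e at 132 ± 31 CPM and a peak of 128 ± 28 CPM shared by Cbx3, a heterochromatin protein, and Hnrnpa2b1, an RNA-binding protein of the spliceosome list. Nuclear pore genes had 13 of 31 (41.9%), led by Tpr at 135 ± 23 CPM and Nup93 at 80.3 ± 27 CPM. RNA polymerase subunits had 10 of 27 (37.0%), led by Polr2h at 121 ± 41 CPM and Polr1d at 98.4 ± 18 CPM. Mediator subunits had 8 of 29 (27.6%), with Cdk19 and Med21 the most open, and the spliceosome list 18 of 62 (29.0%), with Hnrnpa1 at 124 ± 21 CPM. DNA replication genes had 13 of 44 (29.5%), led by Rpa3 and Gins2.

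Genes of cell structure, traffic and growth control follow. Vesicle coats and Rab GTPases had 21 of 50 (42.0%), with Rab5a, which directs early endosomes, at 135 ± 29 CPM and Rab8a at 127 ± 19 CPM. Cytoskeleton and adhesion genes had 18 of 45 (40.0%), led by Zyx at 141 ± 31 CPM and Tubb4b at 100.4 ± 45 CPM. Tumour suppressors and cell cycle genes had 14 of 35 (40.0%), among them Smad2, a TGF-beta signal transducer, at 140 ± 32 CPM. Ubiquitin conjugating and activating enzymes had 9 of 36 (25%), or 25.7% of those with any gene-end peak against 26.9% of all such genes, with Ube2d3 at 180 ± 38 CPM and Uba6 at 98.1 ± 21 CPM.

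Genes of protein synthesis and energy supply are used by nearly every cell. The list of translation initiation factors had 17 of 53 (32.1%), led by Eif2ak3, an eIF2 kinase rather than a factor itself, and Eif4e. Aminoacyl-tRNA synthetases had 11 of 37 (29.7%), led by Wars2 and Lars. The respiratory chain and ATP synthase had 18 of 83 (21.7%), with Cycs at 93.1 ± 27 CPM and a peak of 93.5 ± 22 CPM shared by Ndufb5 and Mrpl47. Mitochondrial ribosomal proteins had 16 of 78 (20.5%), with Mrps28 the most open. Cytosolic ribosomal proteins had 16 of 81 (19.8%), with Rpl7 at 112 ± 14 CPM and Rpl37 at 90.5 ± 29 CPM. Of the genes with any gene-end peak, the last 3 lists had 24.0%, 20.8% and 20.8%, against 26.9% of all such genes. For the initiation factors and the synthetases this share was 34.7% and 31.4%. V-ATPase subunits had 3 of 22 (Atp6v1a, Atp6v1d and Atp6v0d1). The proteasome had 5 of 46 (10.9%): Psme2, Psma5, Psma2, Psma7 and Psmc6, at means of 48.7 to 83.6 CPM. Among replication-dependent histones, which lie in dense gene clusters, 2 of 62 had one, H2ac6 and H2bc4, which share 1 peak of 54.4 ± 14 CPM. Most proteasome and histone genes did have a gene-end peak (43 of 46 and 54 of 62). Apart from the always-open ones, these peaks were below 30 CPM in at least 1 library.

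Identity genes mark a cell's lineage, and immune genes its visibility to T cells. Of 32 epithelial genes 2 had an always-open peak, Grhl1 at 56.4 ± 14 CPM and Elf3 at 54.3 ± 14 CPM, both transcription factors of epithelia. Of 27 mesenchymal genes 4 did: Vim, the intermediate filament of mesenchymal cells, at 91.6 ± 29 CPM, Axl at 72.3 ± 19, S100a6 at 54.6 ± 13 and Zeb1 at 47.9 ± 11 CPM. The Axl peak was shared with Hnrnpul1, whose gene end was the nearest, at 497 bp. Of 20 genes of MHC class I antigen presentation 5 had an always-open peak: Calr, Psme2, Canx, Pdia3 and B2m, the light chain of MHC class I. B2m was near the threshold, at 31.7 CPM in 7160c2 and 80.6 in 6421c2. Interferon response genes had 7 of 32 (21.9%), led by Jak2 at 97.8 ± 26 CPM and Socs1, an inhibitor of JAK signalling, at 94.1 ± 27 CPM. Of the genes with any gene-end peak, the MHC class I and interferon lists each had 25%, against 26.9% of all such genes. None of 1100 olfactory receptors, 126 defensins and keratin-associated proteins, 39 Hox genes or 7 genes of other tissues had one. These had few gene-end peaks of any level, 14, 5, 3 and 2 genes respectively.

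The usual reference genes were split. Of 20 housekeeping genes 18 were autosomal, and 8 of those had an always-open peak. Among them, Gapdh had 141 ± 41 CPM, Actb 74.8 ± 23, Eef1a1 67.0 ± 12, Ppia 54.0 ± 13, B2m 50.9 ± 15, Rpl13a 50.4 ± 15 and Rplp0 45.3 ± 10 CPM (SD, n = 13). Another 8 had a gene-end peak below the mark in some libraries. Of these, Tfrc and Eif4a2 reached 30 CPM in 11 libraries, Tubb5 in 7, Sdha in 6, Tbp in 5 and Gusb in 4. Ywhaz and Ldha had no gene-end peak in the table, and Hprt and Pgk1 are X-linked and outside the rule. The steadiest of the 8 was Eef1a1, a translation elongation factor, with an SD of 0.25 on the log2 scale between clones, and Gapdh had 0.41.

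Promoter composition differed between always-open and other starts. RefSeq windows of 300 bases, from 250 before to 50 after a start, were taken for 3190 starts in always-open peaks, 7707 starts in other peaks and 9187 starts in no peak. The median GC content was 65.3%, 60.7% and 49.3% in these groups. The median ratio of observed to expected CpG was 0.85, 0.76 and 0.23. Windows with GC over 50% and a CpG ratio over 0.6 made 88.0% of the always-open starts, 67.9% of starts in other peaks and 13.6% of starts without a peak. The groups also differ in peak length and depth of signal, so these are descriptions of the windows.

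The motif letters were searched on both strands of the same windows. GGGCGG (SP and KLF factors) stood in 79.4% of always-open starts, 64.0% of other starts in peaks, 21.6% of starts in no peak and 47.0% of all 20084 windows. CCAAT (NFY) stood in 44.6%, 35.9%, 37.7% and 38.1%. The box bound by the TATA-binding protein, searched as TATAAA, was rarer in always-open starts, at 3.73%, 7.27%, 20.4% and 12.7%, and so was TGANTCA (AP-1), at 3.95%, 5.89%, 9.11% and 7.06%. For CCGGAAG (ETS) the starts in peaks of both kinds had close shares, 19.2% and 19.7%, against 2.74% without a peak and 11.9% of all windows. GCGCATGC (NRF1) stood in 6.49%, 5.35%, 1.01% and 3.55%, and TCTCGCGA (BANP) in 3.20%, 2.0%, 0.185% and 1.36%. AANATGGC (YY1) stood in 9.56%, 8.24%, 3.67% and 6.36%, TGACGTCA (CRE) in 3.73%, 3.37%, 0.904% and 2.30%, and CACGTG (E-box) in 10.9%, 10.1%, 5.01% and 7.89%. No 2 of the motifs share their full letters, though matches may overlap in a GC-rich window. A match describes letters, not binding.

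The 2 highest mean levels were not at gene ends. The highest mean level was at chr4:80002390-80005222, 2833 bp long, whose nearest gene end, that of Tyrp1, was 828901 bp away. It had 652 ± 228 CPM (SD, n = 13) and 230 CPM per kb. Its values in the T cell high clones were 434 in 2838c3, 616 in 6421c2, 364 in 6499c4, 624 in 6555c3, 759 in 6620c1 and 987 in 7160c2. In the T cell low clones they were 590 in 2699c4, 372 in 6419c1, 831 in 6419c5, 550 in 6422c1, 511 in 6499c3, 1124 in 6556c3 and 716 in 6694c2. The 2 deepest libraries were lowest and the 2 shallowest highest. The second, chr2:22588113-22590584, inside a gene record and 27668 bp from an end of Myo3a, had 490 ± 161 CPM with its lowest value, 280 CPM, in 6419c1 and its highest, 815 CPM, in 6556c3. By contrast, the median always-open peak was lowest in 6556c3 and next lowest in 7160c2. Whether depth had a part was not tested. No list of regions of unreliable mapping was used here, so whether these levels reflect open chromatin was not tested.

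Next in level came promoters. Hjurp, the chaperone that loads the centromeric histone CENP-A, had 262 ± 66 CPM, from 178 in 6499c3 to 426 in 6555c3. Sp4, an SP family factor, had 244 ± 72 CPM, from 166 in 2838c3 to 416 in 6499c3. Myc followed by its mean of 240 CPM, which rested on 1 clone and is described with the variable peaks.

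In all, 131 always-open peaks (3.85%) lay over 50 kb from any gene end, against 26.2% of autosomal peaks, 61 of them inside genes. Of the 131, 31 were within 1 kb of a listed start, noncoding genes included. After the chromosome 4 peak, the strongest were chr13:85126499-85127585, 61792 bp from Ccnh, with 150 ± 41 CPM, and chr8:90907619-90909182, 79317 bp from Chd9, with 143 ± 58 CPM. The former was highest in 6556c3 (223 CPM) and 7160c2 (207 CPM) and lowest in 6419c1 (96.4 CPM) and 6499c4 (97.4 CPM). The latter was highest in 6421c2, at 325 CPM against 97.1 to 157 in the other T cell high clones. At the chromosome 13 peak, as at the chromosome 4 peak, the 2 shallowest libraries were highest and the 2 deepest lowest. Whether depth or unreliable mapping had a part there was not tested. Then came chr1:7397316-7398525 with 131 ± 34 CPM and chr3:68493044-68494673 with 130 ± 21 CPM. The distant peaks varied about as much as the rest, with a median SD of 0.35 on the log2 scale against 0.34 for the 3401.

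At the other edge, the lowest values just inside the rule were 30.05 CPM at Ralgps2 and at Dcaf7, both in 6421c2, and 30.09 CPM at Cast in 6499c4. Just outside stood Ctnnal1, chr14:105732130-105733302 and chr3:41374684-41375941, each at 29.96 CPM in 2699c4. Their means of 43.1 to 57.4 CPM were no lower than the 41.8 to 51.5 CPM of the 3 just inside, so the rule divides a continuous range there.

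Between clones the always-open peaks varied by a median SD of 0.34 on the log2 CPM scale. Counting error alone would give 0.12 if every read were independent. Both ends of a fragment can count, so this and the counting values below can be too low. The median ratio of the highest to the lowest clone was 2.24. In 970 peaks (28.5%) the highest clone stayed under 2 times the lowest, and in 76 (2.24%) it exceeded 4 times the lowest. The 255 other autosomal peaks within the middle range of the same mean level had a median SD of 0.51, but the rule's minimum removes strongly varying peaks, so this difference is partly fixed by the choice. The SD hardly followed the level: its median was 0.32, 0.35, 0.35 and 0.34 in 4 groups of equal size from low to high mean CPM.

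Libraries differed in the level of the whole set. The median always-open peak had 54.9 CPM in 6556c3, 56.0 in 7160c2, 57.0 in 6419c5 and 59.2 in 6694c2, the 4 shallowest libraries, and 81.5 in 6499c3. Over the T cell high libraries this median averaged 64.7 ± 5.7 CPM (SD, n = 6), over the T cell low ones 66.3 ± 10 CPM (n = 7), and the ranges overlapped. Scaling the libraries to an equal median of these peaks, chosen after seeing the data, lowered the median SD from 0.34 to 0.29. Clone 6499c3 was the highest clone at 1072 of the 3401 peaks (31.5%), while 6556c3 and 7160c2 were lowest at 782 (23%) and 745 (21.9%). The deepest pair, 6419c1 and 6499c4, were lowest at 33 and 97.

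**Figure D3:**
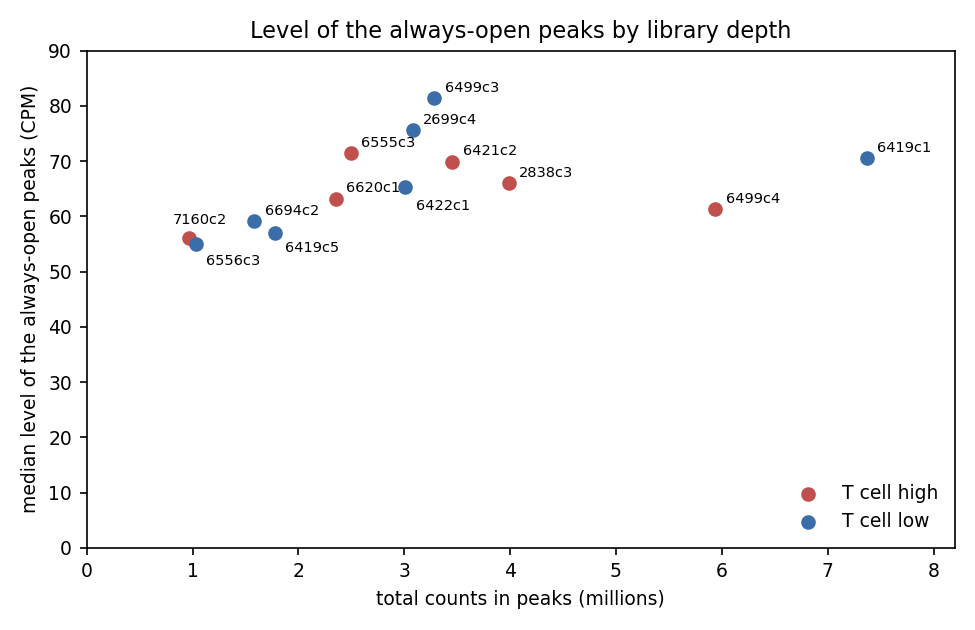
Median level of the 3401 always-open peaks in each library (y axis, CPM) against total counts in peaks (x axis), 1 point per clone, coloured by T cell group. The 4 shallowest libraries have the 4 lowest medians, 54.9 to 59.2 CPM, and 6499c3 the highest, 81.5 CPM.

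The steadiest peaks were mostly at gene ends. The smallest SD, 0.15 on the log2 scale, was at the start shared by D11Wsu47e and Fam104a (chr11:113683127-113684937). Its values were 61.0 in 2838c3, 65.0 in 6421c2, 56.8 in 6499c4, 57.0 in 6555c3, 54.2 in 6620c1 and 59.8 CPM in 7160c2. In the T cell low clones they were 65.7 in 2699c4, 63.1 in 6419c1, 53.2 in 6419c5, 55.3 in 6422c1, 56.9 in 6499c3, 45.2 in 6556c3 and 52.0 CPM in 6694c2. No clone stood apart except 6556c3, which was lowest, and counting alone would give an SD of 0.13 at this depth. Them4, a mitochondrial thioesterase, had 72.8 ± 7.2 CPM, from 56.7 in 6556c3 to 80.8 in 6499c3. Cacul1, a cullin-associated regulator of the cell cycle, had 92.1 ± 9.3 CPM, from 74.7 in 7160c2 to 109 in 2699c4.

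The other 7 of the 10 steadiest had SDs of 0.15 to 0.17. They were the Prkar1a peak at 50.4 ± 5.2 CPM, Thoc1, an RNA export factor, at 44.7 ± 4.9, the zinc finger gene Zfp592 at 49.7 ± 5.9, and chr2:127722200-127722993, 7779 bp from an end of Mall, at 50.3 ± 6.0 CPM. Mki67, the proliferation marker Ki-67, had 46.5 ± 5.4 CPM, Tarsl2, a threonyl-tRNA synthetase, 53.6 ± 6.4, and Zkscan17 42.8 ± 5.3 CPM. Counting alone would give these 7 an SD of 0.13 to 0.15. They were picked for a small SD, so closeness to counting error is set by the choice. Subtracting the regional level, the median deviation of the other tested peaks within 2 Mb from their own means in each library, raised the SD of several: to 0.31 at Thoc1, 0.28 at Mki67, 0.23 at Them4, 0.22 at Cacul1 and 0.20 at D11Wsu47e. It lowered the SD to 0.13 at Prkar1a, 0.14 at Tarsl2, 0.15 at Zfp592 and 0.16 at Zkscan17. After this step the SD over the 3401 peaks had a lower quartile of 0.24 and a median of 0.28. D11Wsu47e, Cacul1 and Them4 stayed under that quartile, Mki67 was just under the median and Thoc1 above it. Among the 341 least variable peaks 84.2% were at a gene end, and 90.4% of their starts were GC- and CpG-rich by the cuts above.

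The 340 most variable peaks had a median SD of 0.49, with 69.7% at a gene end and 84.5% of starts GC- and CpG-rich. Their median level of 66.0 CPM and median length of 1350 bp were close to those of the 341 least variable (66.0 CPM and 1348 bp). CCAAT stood in 50% of their start windows, against 41.3% among the least variable, and GGGCGG in 78.9% against 79.1%. Clone 6499c3 was highest at 161 of the 340 and 6421c2 at 72, and 6556c3 was lowest at 99.

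Myc, the growth-promoting transcription factor, had by far the largest SD, 1.55. Its peak (chr15:61984233-61985892) had 2414 CPM in 2699c4 and 117 CPM in 6499c3. The other 5 T cell low clones had 40.8 to 66.0 CPM and the 6 T cell high clones 38.7 to 63.9 CPM. So 2699c4 alone stood far above, 6499c3 came next, and the other 11 clones overlapped. In 2699c4 the other tested peaks within 2 Mb of it stood above their own means over the clones by a median of 0.53 on the log2 scale, which is the regional level there.

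Ttc7 (chr17:87281885-87283539), which helps to place a lipid kinase at the membrane, had 226 CPM in 6421c2 and 36.4 to 98.2 CPM in the other T cell high clones, against 38.1 to 109 CPM in the T cell low clones. Pkdcc, a secreted kinase, had 185 CPM in 6421c2, chr17:88508753-88509671 near Foxn2 181 CPM and chr17:88255549-88257574 246 CPM, and the next highest value at these 3 was 100.1 CPM, at Pkdcc in 6422c1. With Ttc7, these 4 lie on chromosome 17. A peak 1015 bp from Irx5 (chr8:92355591-92356781), a homeobox factor, had 297 CPM in 6421c2 and 47.0 to 133 CPM in the other 12. The regional level in 6421c2 was raised by 1.25 to 1.34 on the log2 scale at the 4 chromosome 17 peaks and by 1.04 at the Irx5 peak.

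The other variable peaks were more mixed. Zfp653, whose start is shared with Ecsit, had 234 CPM in 6499c3 and 35.4 to 82.6 CPM elsewhere, and the regional level there was raised by 1.22 on the log2 scale in 6499c3. Junb, an AP-1 subunit, had 2 always-open peaks. The 1 that lay 896 bp from the gene record ranged from 33.7 CPM in 6556c3 to 162 CPM in 6421c2. Its 2 lowest values, in 6556c3 and 7160c2 (38.3 CPM), came from the shallowest libraries, and the next was 59.8 CPM in 6694c2. The peak at Lars2, 538 bp long, lay 418 bp from the record's far end rather than its start. It ranged from 31.1 CPM in 6419c1 to 163 CPM in 2699c4, with 106 CPM in 6499c3 the next highest.

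**Figure D4:**
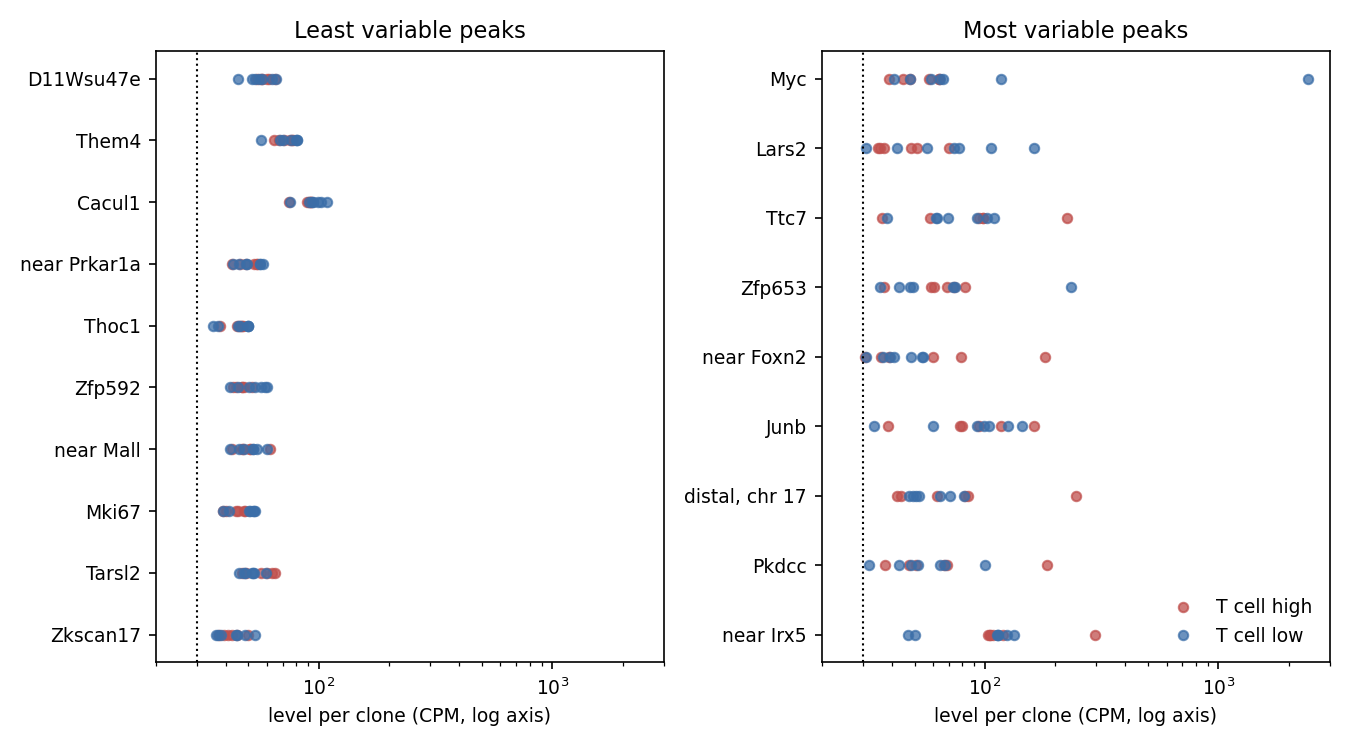
CPM in each of the 13 clones (log axis) for the least variable (left) and most variable (right) always-open peaks named in the text, 1 point per clone coloured by T cell group; the dotted line is the 30 CPM threshold. The steady peaks keep all clones within a narrow band, while Myc has 1 clone at 2414 CPM and 5 others have 6421c2 alone at 181 to 297 CPM.

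Peaks far above their own median lay together along chromosomes. Clone 6499c3 was more than 2-fold above the median of the 13 clones at 183 always-open peaks, 6421c2 at 73 and 2699c4 at 29. Clones 6499c4, 6620c1, 6419c5, 6422c1 and 6694c2 were so at 0. More than 2-fold below were 57 in 7160c2 and 49 in 6556c3, the shallowest libraries. In 6421c2, 15 of 15 always-open peaks between 85 and 90 Mb of chromosome 17 and 14 of 15 between 90 and 95 Mb of chromosome 8 were above. In 6499c3 it was 15 of 18 between 110 and 115 Mb of chromosome 12, 12 of 13 between 35 and 40 Mb of chromosome 15, and 8 of 10 between 20 and 25 Mb of chromosome 9. The median regional level at the always-open peaks of those windows was raised by 1.27, 1.19, 0.83, 0.65 and 1.24 on the log2 scale. Copy number was not measured, and its part was not tested.

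**Figure D5:**
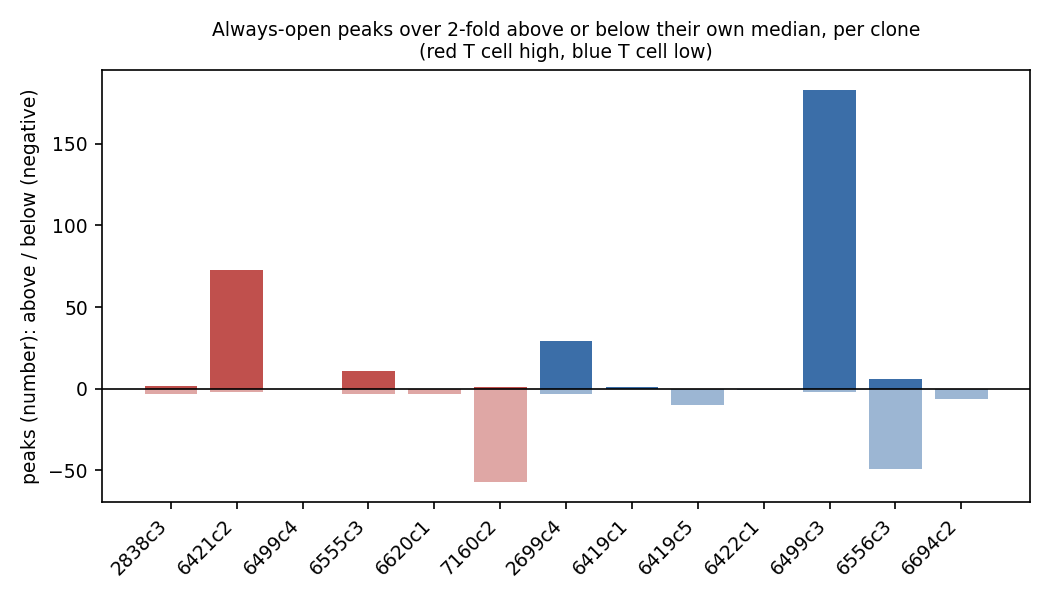
Number of always-open peaks in each clone (x axis) that lay more than 2-fold above (positive bars) or below (negative bars, paler) the median of the 13 clones. Clone 6499c3 had 183 above and 6421c2 had 73, and 7160c2 and 6556c3 had 57 and 49 below.

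By chromosome, 33.8% of the 154 always-open peaks of chromosome 12 were among the 340 most variable, 25.9% on chromosome 10, 25.8% on chromosome 9 and 21.0% on chromosome 17, against 0.733% of 273 on chromosome 1 and 0 of 99 on chromosome 14. Subtracting the regional level in each library left a median SD of 0.28 of the 0.34. The share of gene-end peaks that were open in every clone also differed by chromosome. It was 36.0% on chromosome 18 and 32.3% on chromosome 6, and 13.6% on chromosome 4 and 14.3% on chromosome 9. The level of the gene-end peaks differed too, with medians of their mean CPM of 35.3, 30.5, 21.6 and 22.0 in the same order. The part of this level in the shares was not tested.

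Clones whose names share their leading digits occurred as 2 pairs. Over the 3401 peaks, the deviations from each peak's mean correlated between 6419c1 and 6419c5 with r = 0.21, the 4th highest of 78 pairs of clones, and between 6499c4 and 6499c3 with r = 0.02, the 21st. These r are across peaks, which are not independent replicates. That such clones come from 1 parental tumour is a reading of their names.

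No always-open peak passed the test between the T cell groups. With edgeR's quasi-likelihood test, T cell high against T cell low, 0 of 3401 had an adjusted p under 0.05, and 0% of all 59252 peaks tested did. At an unadjusted p under 0.05 there were 126 always-open peaks (3.70%), against 6.83% of all peaks tested. Of these, 24 (0.706%) were higher and 102 (3.00%) lower in T cell high, against 3.86% and 2.96% of all peaks tested. The split depended on the scaling. With libraries scaled to an equal median of the always-open peaks it was 69 higher and 96 lower. Over all 59252 peaks tested it was then 2373 higher and 1326 lower. Together these were 4.85% of the always-open peaks and 6.24% of all peaks tested. DESeq2 called 0 of the 3401, against 0.0677% of all its peaks, and 118 at an unadjusted p under 0.05, against 8.38%. With limma-voom it was 0, against 0%, and 158, against 8.52%. Without 2838c3 the count was 241 (7.09%), against 10.7% of all peaks tested. In that fit 42 of all peaks had an adjusted p under 0.05, and 0 of them were always open. It was 76 (2.23%) without 6499c4, against 5.37% of all peaks, and 76 without 6555c3, against 5.06%.

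The differences were small. The median log2 fold change, T cell high over T cell low, was -0.04, and 90% of the values lay between -0.36 and 0.27. The median turned to 0.01 with the equal-median scaling and also to 0.01 without 6499c3. Over all peaks tested the median was 0.01 and the range -0.75 to 0.85. More than 2-fold was found at 1 always-open peak (0.0294%), Myc, against 5.32% of all peaks tested. Among other gene-end peaks tested it was 2.70%. Among 265 other tested peaks within the middle range of the same mean level it was 2.64%, with 90% of values between -0.57 and 0.43. The rule's minimum in every library removes strongly varying peaks, so these differences are partly fixed by the choice. In simulated data the test called 14.7% of peaks changed 2-fold and 72.9% of those changed 4-fold. These shares are over peaks of every level and were not measured at the level of the always-open peaks.

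The 5 smallest p were at peaks with lower means in T cell high, with adjusted p of 0.538 to 0.585 in edgeR's quasi-likelihood test. Usp25, a deubiquitinase (chr16:77013000-77014399), had 68.8 CPM in 2838c3, 54.0 in 6421c2, 57.7 in 6499c4, 50.7 in 6555c3, 68.0 in 6620c1 and 57.0 in 7160c2. In the T cell low clones it had 106 CPM in 2699c4, 129 in 6419c1, 81.7 in 6419c5, 86.1 in 6422c1, 98.3 in 6499c3, 69.1 in 6556c3 and 74.7 in 6694c2. T cell low was higher with no overlap, by a narrow gap between 68.8 in 2838c3 and 69.1 in 6556c3, with a log2 fold change of -0.64 ± 0.17 (SE) and an adjusted p of 0.538. Groups without overlap occurred at 2 always-open peaks (0.0588%), against 0.155% of all peaks tested. The other was Apc, the tumour suppressor of the WNT pathway, singled out after its values were seen, with 32.7 to 46.9 CPM in T cell high and 48.1 to 86.1 CPM in T cell low clones.

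Atp5j with Gabpa, a subunit of ATP synthase and an ETS factor on 1 peak, had 69.7 ± 17 CPM (n = 6) and 107 ± 21 CPM (n = 7), and the groups overlapped. Mfsd14a, a membrane transporter, had 56.9 ± 19 and 88.4 ± 13 CPM, and Ssbp2, a DNA-binding cofactor, 52.3 ± 12 and 81.9 ± 24 CPM, also with overlap. Usp25 and Atp5j lie on chromosome 16, and with offsets for the regional level within 2 Mb their log2 fold changes went from -0.64 and -0.63 to -0.34 and -0.21. Myc had a log2 fold change of -2.93 ± 0.82 (SE) and an adjusted p of 0.572. Without 2699c4 it was -0.33, and it was -0.30 with DESeq2 and -0.97 with limma-voom, so the value rests on that clone.

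No list moved between the groups by an adjusted p. At an unadjusted p under 0.05 the always-open peaks of the lists held at most 2 genes each, 2 of 16 in the mitochondrial ribosomal and 2 of 18 in the respiratory chain list, against 96 of the 3255 genes with an always-open peak (2.95%). Ube2d3 and Socs1 were 2 of the genes with lower means in T cell high, with log2 fold changes of -0.45 and -0.46 and adjusted p of 0.610 and 0.693. Median log2 fold changes of the lists lay between -0.25 and 0.06, against -0.05 over the 3255 genes with an always-open peak. For chaperones the median was -0.02 and for chromatin genes -0.05.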

How the data were processed

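ATAC-seq libraries of sorted tumour cells from 13 clones were used. The deposited values were raw counts of reads per merged peak, made by the authors with featureCounts 1.5.3, per the file headers. Per the submitters' processing notes, the build was mm10 and DESeq2 was among the tools. Which aligner and peak caller were run is not given in the sources used here. Reads rather than pairs were counted, per the file headers, so both ends of a fragment can count. Counting SDs cover counting error only, take every read as independent and can therefore be too low.

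Samples were grouped by the labels' T cell phenotype. The tests ran under R 4.3.3 and edgeR 4.0.16. There, filterByExpr by group left 59252 peaks, including all 3401 always-open ones, libraries were scaled by TMM, and groups were compared by the two-sided quasi-likelihood F-test with Benjamini-Hochberg adjustment over all tested peaks. DESeq2 1.42.0 and limma 3.58.1 (voom) were alternatives. Log2 CPM used a prior count of 2. On data simulated from these libraries, 56196 peaks were tested, 14.7%, 72.9% and 100.0% of 2-, 4- and 8-fold changes were recovered and 4 unchanged peaks were called. P-values measure the spread between single clones.

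Genes, starts and promoter sequences came from RefSeq tables of GRCm38.p6, which mm10 represents. Gene records lack strand, so either end counted. Strand came from the promoter table, which covers 17491 of 21896 protein-coding genes. Of the 34 lists' symbols, 3 (Mx1, Mx2 and Amy2a) had no match. The histone symbols were adapted to those of the reference. The members, lists and tests were chosen with earlier results of these data known.

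Peaks named are the 10 least and 10 most variable, the 5 with the highest mean, the 5 with the smallest p, the 2 most open of each list (all in lists with 6 or fewer), 3 on each side of the threshold, the 5 strongest over 50 kb from a gene end, and the housekeeping genes. Alternatives changed the threshold, scaling, peak length, gene-end distance, test, filter and regional level, thinned the counts, and left out libraries. Some genes that this rule names are not reported here.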

Additional observations from a re-analysis of the deposited data

Results flagged for a closer look

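Values that stood apart within their own T cell group, by the gap to the nearest other clone, were found for 11 of 60 groups of values tested, where chance alone gives about 1 in 20. Clone 6421c2 was the high value among the T cell high clones at 5 of the most variable always-open peaks: Ttc7 at 225.7 CPM, chr17:88508753 at 180.6, chr17:88255549 at 245.6, Pkdcc at 184.6 and the peak near Irx5 at chr8:92355591 at 296.8 CPM. These peaks were named because they vary most, and 4 of them lie within a few megabases of chromosome 17, so they are not independent. The other values were Myc at 2414 CPM in 2699c4 and Zfp653 at 233.6 CPM in 6499c3, both high among the T cell low clones. Among the steadiest peaks, Cacul1 was low in 7160c2 at 74.69 CPM and Thoc1 low in 6421c2 at 37.72 CPM, where the other T cell high clones lay close together. Values of whole libraries also stood apart among the T cell low clones: the total counts in peaks of 6419c1, 7369228, and the 185 always-open peaks of 6499c3 over 2-fold from the median of the clones.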

How the results depend on the processing

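No paired analysis was possible because each library was a different clone and replicate numbers follow accession order. The number of always-open peaks was 6335 at 20 CPM and 1053 at 50 CPM. It was 3606 with unscaled totals, 3192 with DESeq2 size factors, 2282 with 30 CPM per kb, 2497 with counts thinned to the shallowest library, and 3417 to 3696 with 1 library left out. The share at a gene end was 71.8% at 20 CPM, 86.2% at 50 CPM, 75.1% with 30 CPM per kb, 77.6% within 500 bp, 82.4% within 2 kb, 75.5% without the 2 shallowest libraries (an alternative chosen after seeing the data) and 77.1% to 79.4% with 1 library left out, lowest without 7160c2. The median SD ranged from 0.28 with the regional level subtracted to 0.42 with thinned counts over the same peaks. No alternative called an always-open peak between the T cell groups: DESeq2, limma-voom, no filter, regional offsets, the equal-median scaling chosen after seeing the data, and each library left out gave 0. The count at an unadjusted p under 0.05 ranged from 76 to 241 with 1 library left out (2.23% without 6499c4 or 6555c3, against 5.37% and 5.06% of all peaks tested, to 7.09% without 2838c3, against 10.7%). The negative sign of the 5 named fold changes held under the 18 alternatives run. In the 2 shallowest libraries 30 CPM is about 32.1 and 33.9 counts, which limits how well a peak near the threshold can be placed.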
